A study of Homo sapiens with 2 samples.

Results

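Binding of PRMT6 and of PARP1 was mapped in MDA-MB-231, a long-established line of human triple-negative breast cancer cells for which the labels name no treatment, and each antibody has 1 sequencing library. PRMT6 is a nuclear enzyme that methylates arginines, among them an arginine of the histone H3 tail, and PARP1 attaches ADP-ribose to proteins at DNA breaks and in chromatin. From each library comes a peak list, where a peak is a region in which sequenced fragments pile up above the surroundings. Every peak has a score, read here from its range and layout as the −log10 of a p-value or a q-value (a p-value adjusted over the peaks) of the authors' peak caller. Which of the latter it is could not be settled, so a score and the limit of 5.5 give an order of peaks within the list and not a known error rate. The regions described here are stronger PRMT6 peaks away from gene starts and without PARP1, called PRMT6-only distal peaks below. They were chosen on chromosomes 1 to 22 and X by a score of 5.5 or more, no shared base with any PARP1 peak, and more than 3 kb between the peak and the 5′ end of every annotated gene of any kind. The rule found 668 of the 9080 PRMT6 peaks. The median score of the whole PRMT6 list was 5.51, so stronger here means from about the middle of the list upward. Before the results it must be said that no library is replicated and no control library was analysed, so intervals in brackets after a share are 95% exact binomial intervals (Clopper-Pearson) over peaks or genes, which cover counting error only, and no test between groups was made.

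Chromatin away from gene starts includes enhancers, which act on genes at a distance, the bodies of genes, and second promoters from which shorter or longer forms of a gene are transcribed. The methylation set by PRMT6 on histone H3 opposes the mark of active promoters that is set on a nearby lysine. The lists hold PRMT6 and PARP1 peaks only, so marks of active or silent chromatin were not analysed here.

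The distance in the rule used 1 start per gene record, and 17 of the 668 peaks (2.54%, interval 1.49% to 4.04%) spanned another start that RefSeq lists for a gene, more than 3 kb from the 5′ end of every record. All 17 belonged to protein-coding genes. They include CDKN2C, an inhibitor of the kinases CDK4 and CDK6, RUNX1, a transcription factor of blood and breast epithelium, NFIB, a transcription factor of the nuclear factor I family, RAD52, a DNA repair protein, and EIF4G1, a scaffold of translation initiation. A start of this kind lay within 3 kb, the distance of the rule, of 33 of the 668 (4.94%, 3.42% to 6.87%), the 17 included. With every start of the RefSeq promoter table added to the rule, 633 peaks remained. For the 17 peaks that span such a start the word distal goes against the annotation, and they are called peaks at alternative starts. Their sequences are shown because a RefSeq table of promoters holds these bases, and those of the 6 genes printed here lie wholly within the peak. The lines below give the 250 bases just upstream of the alternative start under the 5 strongest of these peaks, and of RUNX1, which was added after its values were seen because its use of more than 1 promoter is well known. They are RefSeq sequences of GRCh38.p14, written 5′ to 3′ on the strand of the gene. Capitals mark matches, on either strand, to the GC box (GGGCGG), the CCAAT box (CCAAT), the TATA box (TATAAA), the AP-1 element (TGANTCA) or the cAMP response element (TGACGTCA). These motifs do not overlap each other in the sequences shown.

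CDKN2C: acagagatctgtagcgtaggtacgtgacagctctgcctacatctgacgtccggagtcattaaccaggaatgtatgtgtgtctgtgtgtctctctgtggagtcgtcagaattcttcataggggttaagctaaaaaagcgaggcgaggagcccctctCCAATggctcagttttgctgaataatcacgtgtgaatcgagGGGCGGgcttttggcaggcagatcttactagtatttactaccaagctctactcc
CCDC30: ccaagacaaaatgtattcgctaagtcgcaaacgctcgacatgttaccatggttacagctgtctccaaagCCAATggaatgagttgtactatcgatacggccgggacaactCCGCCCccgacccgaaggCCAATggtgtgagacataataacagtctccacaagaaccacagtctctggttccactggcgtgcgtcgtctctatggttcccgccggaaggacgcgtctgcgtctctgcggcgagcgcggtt
ZNF331: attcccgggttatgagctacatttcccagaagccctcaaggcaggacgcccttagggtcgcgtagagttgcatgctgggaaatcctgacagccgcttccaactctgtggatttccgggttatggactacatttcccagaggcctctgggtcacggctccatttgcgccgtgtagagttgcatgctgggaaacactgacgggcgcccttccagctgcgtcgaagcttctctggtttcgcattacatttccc
EIF4G1: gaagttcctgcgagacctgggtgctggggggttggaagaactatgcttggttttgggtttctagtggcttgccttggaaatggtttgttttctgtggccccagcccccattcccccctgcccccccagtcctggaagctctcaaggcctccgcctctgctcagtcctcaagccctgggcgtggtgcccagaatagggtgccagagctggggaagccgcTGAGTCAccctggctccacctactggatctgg
VKORC1L1: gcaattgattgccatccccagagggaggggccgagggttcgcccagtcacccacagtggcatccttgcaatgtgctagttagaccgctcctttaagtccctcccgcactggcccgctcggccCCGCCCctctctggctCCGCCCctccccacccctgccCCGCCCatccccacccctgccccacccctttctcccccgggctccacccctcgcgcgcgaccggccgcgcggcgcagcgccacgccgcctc
RUNX1: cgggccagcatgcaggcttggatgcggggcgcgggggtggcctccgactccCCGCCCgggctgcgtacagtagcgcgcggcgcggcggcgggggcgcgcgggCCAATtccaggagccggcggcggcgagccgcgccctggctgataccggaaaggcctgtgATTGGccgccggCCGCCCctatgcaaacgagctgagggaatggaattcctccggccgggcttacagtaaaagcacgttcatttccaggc

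Read as sequence, the stretch of CDKN2C (chr1:50969995-50970244, plus strand) held 1 CCAAT box, 1 GC box and 10 CpG pairs. The stretch of CCDC30, a coiled-coil gene (chr1:42463036-42463285, plus strand), held 1 GC box, 2 CCAAT boxes and 22 CpG pairs. That of ZNF331, a zinc finger gene (chr19:53520764-53521013, plus strand), held no match and 14 CpG pairs. The stretch of EIF4G1 (chr3:184320013-184320262, plus strand) held 1 AP-1 element and only 4 CpG pairs. Like CCDC30, VKORC1L1, a relative of the vitamin K epoxide reductase (chr7:65872824-65873073, plus strand), had 22 CpG pairs, with 3 GC boxes. RUNX1 (chr21:34888700-34888949, minus strand) had 32 CpG pairs, 2 GC boxes and 2 CCAAT boxes. The observed over expected number of CpG pairs was highest at CCDC30 (1.18), followed by RUNX1 (1.02) and VKORC1L1 (0.771).

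Over all 3936 alternative starts on these chromosomes, which belong to 2710 genes, 140 lay under a PRMT6 peak of any kind (3.56%). The PRMT6-only distal peaks covered 19 starts of 17 genes, and stronger distal PRMT6 peaks that overlap PARP1 covered 83 starts of 70 genes. The 250 bases upstream of a start were read whole, also where the peak covers only some of them. Those of the 19 starts had a median CpG ratio (observed over expected number of CpG pairs) of 0.726, with quartiles of 0.536 and 0.846. The 83 starts had a median of 0.778, and the 3726 starts under no peak of either list had 0.305. GC boxes were found upstream of 12 of the 19 starts (63.2%, 38.4% to 83.7%), 71.1% of the 83 starts and 26.5% of those without a peak. Over all 34961 promoter windows of this length, 42.7% held a GC box, 32.0% a CCAAT box, 10.7% a TATA box, 6.54% an AP-1 element and 1.65% a cAMP response element. CCAAT boxes were upstream of 10 of the 19 starts (52.6%, 28.9% to 75.6%), 55.4% of the 83 starts and 29.8% of those without a peak. AP-1 elements were upstream of 2 of the 19 (10.5%), 10.8% of the 83 and 8.70% of those without a peak. A TATA box was upstream of 1 of the 19 (5.26%), 1.20% of the 83 and 13.6% of those without a peak. The cAMP response element was found in none of the 19, in 4.82% of the 83 and in 0.778% of those without a peak.

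The peaks at alternative starts ran through the score range. CDKN2C had the highest score, 10.93 (rank 871 of all PRMT6 peaks), followed by CCDC30 with 9.53, ZNF331 with 9.38, EIF4G1 with 9.17 and VKORC1L1 with 9.03. NEDD4L, a ubiquitin ligase, had 8.32. The other 11 scored from 5.55 at NEU3, a sialidase, to 7.31 at BAHD1, a chromatin protein. Of the 57 PRMT6-only distal peaks with a score of 8 or more, 6 were of this kind. Only the peak at RAD52 had the smallest width of the list. The alternative start lay far from the 5′ end of the record at NFIB (209.7 kb), NEDD4L (177.3 kb) and RUNX1 (160.6 kb), and close to it at BAHD1 (3.5 kb).

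**Figure D1:**
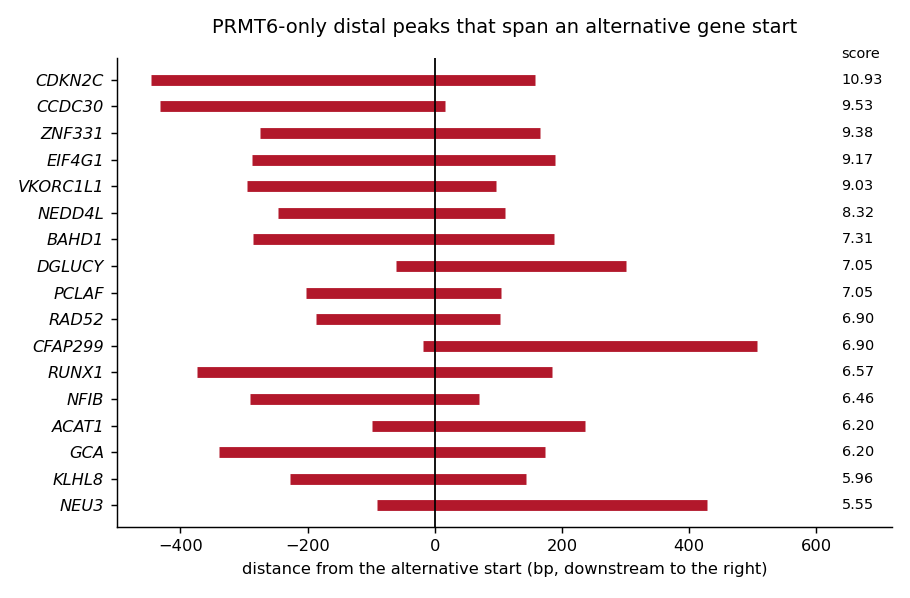
Each bar is a PRMT6-only distal peak that spans an alternative gene start, drawn from its first to its last base in bp from that start, with the gene's direction to the right and the peak's score (−log10 p or q) beside it. The 17 peaks are ordered by score from CDKN2C (10.93) to NEU3 (5.55), and that of CDKN2C reached from 446 bp upstream to 157 bp downstream.

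At the 5′ end of the record of these 17 genes, 6 had a PRMT6 peak within 3 kb, 3 had a PARP1 peak and 11 had neither. Over all protein-coding genes 18.1% had a PRMT6 peak there and 22.3% a PARP1 peak, and 3 of 17 is close to the latter. RUNX1, DGLUCY, a metabolic enzyme gene, and PCLAF, which encodes a partner of the replication clamp PCNA, had peaks of both lists there. CDKN2C, GCA and KLHL8 had a PRMT6 peak only. NEDD4L, NFIB, RAD52, EIF4G1, ZNF331 and VKORC1L1 were among the 11 with none.

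The distal PRMT6 peaks that met the same limit of 5.5 and overlapped PARP1 numbered 1236. Their median score was 7.59, against 5.95 in the 668. The share of peaks at alternative starts was 5.74% (4.51% to 7.19%) in these 1236. It was 0.567% (0.325% to 0.919%) in the 2821 weaker distal PRMT6 peaks, those with a score under 5.5 and no PARP1 overlap. The interval of the 668 peaks lay between those of both other groups and overlapped neither. Without the 206 peaks tied at the lowest score, none of which spanned such a start, the share was 3.68% (2.16% to 5.83%), which overlapped that of the peaks over PARP1. In bands of equal score the share was 1.18% against 3.06% from above 5.51 to 6, and 3.59% against 4.53% from 6 to 7. It was 4.35% against 5.21% from 7 to 8, 11.9% against 5.505% from 8 to 10, and 6.67% against 9.24% at 10 or more. The first value of each pair is that of the PRMT6-only distal peaks, and it was lower except from 8 to 10. In each band the intervals overlapped, so at equal score no difference from the peaks over PARP1 was resolved.

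Of the PRMT6 peaks on these chromosomes, 53.6% overlapped no PARP1 peak, and of the 1904 distal peaks with a score of 5.5 or more, 668 did not (35.1%). The rule used both measures, so these shares are descriptions. The share without PARP1 was lower in each higher band of score. It was 95.8% of the 215 distal peaks at 5.51, 46.3% of the distal peaks with a score above 5.51 and under 6, 36.8% from 6 to 7, 24.6% from 7 to 8, 16.2% from 8 to 10, and 4.56% at 10 or more, where 15 of 329 peaks remained. The PRMT6-only distal peaks had a median score of 5.95 with quartiles of 5.51 and 6.76, and the highest, 15.33, ranked 346 in the PRMT6 list.

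A block of 206 peaks, 30.8% of the 668, shared the lowest score of 5.51, and all 206 had exactly the smallest listed width of 288 bp. Just outside the threshold, 5 peaks that met the rest of the rule had a score of 5.45, among them peaks within LRP5, a Wnt co-receptor gene, and NPLOC4, a cofactor of protein degradation. The last peaks just inside lay on chromosome X, from 36449134 to 36449422 and from 119041148 to 119041436, outside any gene record. The tied peaks differed from the other 462. They lay within a protein-coding gene record in 49.5% (42.5% to 56.5%), against 69.3% (64.8% to 73.4%) of the others. Their median distance was 168.8 kb to the nearest PARP1 peak and 169.6 kb to the nearest other PRMT6 peak, against 30.1 kb and 35.4 kb. Of the weaker distal peaks 53.3% (51.4% to 55.1%) lay within coding genes, an interval that overlapped that of the tied peaks, and their median distance to PARP1 was 71.7 kb, between those of the tied and of the other peaks. Each share that follows is therefore also given without the tied block where that moves it out of its interval.

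**Figure D2:**
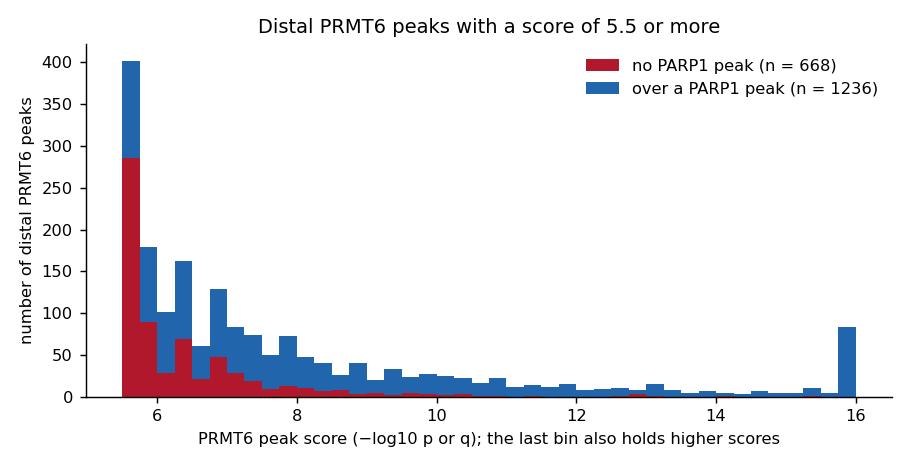
Number of distal PRMT6 peaks with a score of 5.5 or more, by score (−log10 p or q), for the 668 peaks without a PARP1 peak and the 1236 over a PARP1 peak, stacked. The peaks without PARP1 crowd into the lowest bin, which holds the 206 peaks tied at 5.51, and 15 of them reach 10 or more.

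Most PRMT6-only distal peaks lay in genes, and how much of the genome away from starts is covered by gene records was not analysed here. Of the 668, 481 shared a base with a gene record of any kind (72.0%, 68.4% to 75.4%), 422 with a protein-coding record (63.2%, 59.4% to 66.8%) and 77 with the record of a long noncoding RNA (11.5%, 9.20% to 14.2%). In the distal peaks over PARP1 the share in any gene record was 68.3% (65.6% to 70.9%), and in the weaker distal peaks it was 64.6% (62.8% to 66.4%). The interval of the 668 peaks lay above that of the weaker peaks and overlapped that of the peaks over PARP1. Without the tied block the share was 76.8% (72.7% to 80.6%), above that of the peaks over PARP1 with no overlap. Within bands of equal score the coding share was 68.0% against 60.2% from above 5.51 to 6, 72.5% against 59.9% from 6 to 7, 62.3% against 59.2% from 7 to 8, 78.6% against 62.8% from 8 to 10, and 53.3% against 59.6% at 10 or more. The first value of each pair is that of the PRMT6-only distal peaks, and in each band the intervals overlapped.

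Distances to gene starts ran from 3.06 kb to 287.2 kb with a median of 15.5 kb, where the median was 13.97 kb for distal peaks over PARP1 and 21.0 kb for the weaker ones. Without the tied block it was 12.7 kb, below that of the peaks over PARP1. The nearest protein-coding start lay at a median of 35.0 kb. The host genes were long, with a median record of 104.7 kb against 24.1 kb over all protein-coding genes, and hosts of the distal peaks over PARP1 were long as well (91.5 kb). Without the tied block the median was 85.9 kb, below that of the hosts of peaks over PARP1. The part of gene length was not tested. Of the 422 peaks inside coding genes, 21.6% (17.7% to 25.8%) had a host with a PRMT6 peak within 3 kb of its 5′ end, against 22.04% (19.1% to 25.2%) for distal peaks over PARP1 and 18.1% of all protein-coding genes. For a PARP1 peak at the host's 5′ end the shares were 23.2%, 26.9% and 22.3%.

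**Figure D3:**
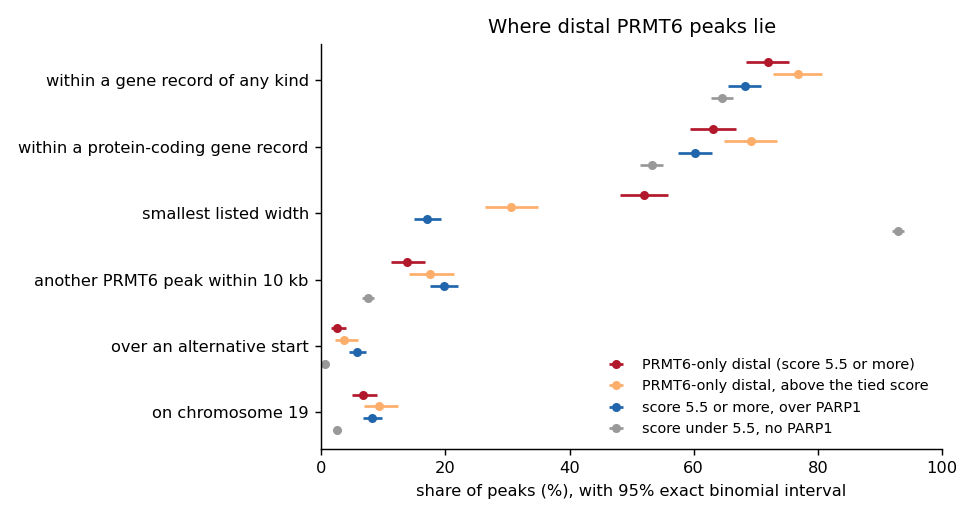
Share of peaks in percent, with 95% exact binomial intervals as bars, for the 668 PRMT6-only distal peaks, the 462 of them above the tied score, the 1236 distal peaks over PARP1 and the 2821 weaker distal peaks without PARP1. The 6 measures are a gene record of any kind, a protein-coding record, the smallest listed width, another PRMT6 peak within 10 kb, an alternative start and chromosome 19. For the smallest width the groups are at 51.9%, 30.5%, 17.0% and 92.9%.

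The strongest 10 PRMT6-only distal peaks had scores from 10.63 to 15.33. The first lay within PTDSS2, a phosphatidylserine synthase gene (chromosome 11, 460554 to 461077), 12.3 kb from the gene's start and 12.2 kb from the nearest PARP1 peak. The second, with a score of 14, lay within ADPRHL1, a relative of the enzymes that remove ADP-ribose (chromosome 13, 113449174 to 113449600), 3.89 kb from its start and 38.1 kb from the nearest PARP1 peak. Both were thus inside genes, and their lack of PARP1 overlap was set by the rule. The first was nearer to PARP1 than the lower quartile of the 668 peaks, 16.2 kb.

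Of the next 4, none lay in a coding gene. A peak with a score of 13.12 (chromosome 11, 66312463 to 66313179) was 3.87 kb from the start of CD248, a surface protein of stromal cells, and its nearest PARP1 peak was only 168 bp away. A peak with a score of 12.89 (chromosome 22, 41403781 to 41404207) had as its closest start that of the noncoding gene LOC105373042, at 21.9 kb. The peak scoring 12.86 lay within the noncoding gene LOC124906253 (chromosome 3, 195915006 to 195915422), 6.46 kb from the start of the tyrosine kinase gene TNK2, and that scoring 12.76 within LINC01303 (chromosome 14, 61562786 to 61563229). The nearest coding start to LINC01303's peak was that of HIF1A, the hypoxia factor, at 132.3 kb, and a PARP1 peak lay 636 bp from it.

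The remaining 4 all lay within gene records. The peak within VEGFC, a growth factor of lymphatic vessels, had a score of 12.61 (chromosome 4, 176769457 to 176769921) and lay 23001 bp from its start. A peak with a score of 11.30 was in the antisense gene IL12A-AS1, 59.7 kb from the start of the cytokine gene IL12A (chromosome 3, 159928733 to 159929139). The peak at CDKN2C, already shown by its sequence, came next (chromosome 1, 50969799 to 50970402). The last, within the transcription factor gene KLF16 (chromosome 19, 1855316 to 1855769), was 6.83 kb from the start of REXO1 and 1695 bp from a PARP1 peak.

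Few coding records held more than 1 of these peaks, and the same counts were not made for other groups. Coding records with at least 1 of them numbered 413 of 20050, 23 coding records held 2 or more, and CUX1, a homeobox transcription factor, was the only record of any kind with 3. At CUX1 the scores were 5.51, 7.90 and 5.51, with gaps of 9.04 kb and 78.3 kb between peaks in a record of 468.0 kb. VEGFC held peaks of 12.61 and 5.73, 8.1 kb apart. TFPI, an inhibitor of blood clotting, held peaks of 8.78 and 9.10 that were 7.19 kb apart and also lay in the overlapping noncoding record CALCRL-AS1. DGKZ, a lipid kinase, held 8.32 and 8.12 at 5.79 kb, CTIF, a translation factor, 6.76 and 8.42 at 69.7 kb, and NEDD4L 8.32 and 6.61 at 20.2 kb. MIER1, a transcriptional repressor, held 7.05 and 7.59 at 6.58 kb. MYH9, the heavy chain of a nonmuscle myosin, held 5.75 and 8.15 at 7.57 kb, and the pseudogene record LOC102723945 held 7.46 and 6.42. PRMT6 peaks of every kind in these records ran from 2 at DGKZ and NEDD4L to 7 at CUX1 and LOC102723945. TFPI held 5 of them, and VEGFC and MYH9 held 4 each. Of the named coding genes, VEGFC, MIER1 and MYH9 had peaks of both lists within 3 kb of their 5′ end, TFPI a PRMT6 peak only, CTIF a PARP1 peak only, and CUX1, DGKZ and NEDD4L none. With gaps of at most 50 kb allowed, 608 peaks stood alone, 30 pairs formed, and no run of 3 or more was found.

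Gene lists for pathways of the study and of breast cancer cells were described by how many genes held a PRMT6-only distal peak or had the nearest coding start within 100 kb. Over all protein-coding genes the share was 3.26%. In the list of actin and adhesion genes it was 4 of 28 (14.3%, 4.03% to 32.7%), all with the peak inside the record. VCL, which links the cytoskeleton to adhesions, held peaks of 6.20 and 7.31, MYH9 is given above, DOCK1, an activator of the GTPase Rac, held 7.05, and PARVA, an adhesion adaptor, held 5.62. The genes of this list are long, with a median record of 161.4 kb against 24.1 kb over all coding genes.

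In the list of epithelial-mesenchymal transition and invasion genes the count was 5 of 30 (16.7%, 5.64% to 34.7%). The median record of this list was 35.4 kb, against 24.1 kb over all coding genes, and the part of length was not tested. ITGB1, an integrin chain, held its peak inside the record with a score of 5.65. ZEB2, a repressor of epithelial genes, ITGA2, an integrin chain, MMP14, a matrix protease, and SMAD3, a mediator of TGF-beta signals, had theirs outside, at 40.7, 71.9, 14.7 and 15.5 kb from the start. The scores ran from 5.51 to 5.89, all below the median of the 668, and each of these peaks had the smallest width.

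Among Wnt genes 3 of 38 (7.89%, 1.66% to 21.4%) were counted. DKK3, of a family of secreted Wnt modulators, held peaks of 5.75 and 6.61, and CTNNB1, beta-catenin, and the ligand gene WNT3 lay 75.5 and 75.6 kb from theirs. Among growth factor and MAPK genes 2 of 30 (6.67%, 0.818% to 22.1%) were counted, the receptor MET with 7.49 inside its record and the phosphatase DUSP1 with 7.08 at 29.1 kb. The peak near DUSP1 was 659 bp from a PARP1 peak. Among AP-1 factors and effectors of YAP and TEAD the count was 2 of 23 (8.70%, 1.07% to 28.0%). TEAD1, a DNA-binding partner of YAP, held peaks of 6.82 and 5.73, and ANKRD1, a YAP target, was 9.35 kb from a peak of 6.41 that lay 331 bp from a PARP1 peak. The median record was 43.8 kb in the Wnt list, 69.0 kb in the MAPK list and 20.1 kb in the list of AP-1 factors and effectors.

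Of 40 DNA repair genes 3 (7.5%, 1.57% to 20.4%) were counted, RAD52 with its peak of 6.90 at an alternative start, RAD51B with 5.62 inside the record and ERCC2 with 6.22 at 5.74 kb. Of 25 core clock genes, 1 (4%, 0.101% to 20.4%) was counted, BMAL1, 14.7 kb from a peak tied at 5.51. No clock gene held a peak inside its record. Of 26 olfactory receptor genes, taken as genes that breast cells should not use, 1 (3.85%) was counted, OR7C1, with a peak of 7.49. The median record was 55.4 kb in the DNA repair list, 35.3 kb in the clock list and 11.2 kb in the olfactory list.

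Genes of common fragile sites, which are very long, gave 4 of 18 (22.2%, 6.41% to 47.6%). WWOX, LRP1B and MACROD2 held a peak and LSAMP lay 82.3 kb from one. All 4 peaks belonged to the block tied at 5.51. The median record of this list was 1375.0 kb.

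The rule used overlap with PARP1, so distances to PARP1 peaks are descriptions. The nearest PARP1 peak was at a median of 46.4 kb, with quartiles of 16.2 kb and 159.7 kb. A PARP1 peak lay within 10 kb of 107 of the 668 peaks (16.02%, 13.3% to 19.02%), and within 1 kb of 21. Without the tied block the share within 10 kb was 21.2% (17.6% to 25.2%), and in the tied block alone it was 4.37% (2.02% to 8.13%). In the weaker distal peaks it was 10.2% (9.12% to 11.4%). A further 582 PRMT6 peaks lay near a gene start, met the same score limit and did not overlap PARP1. Their share was 25.4% (21.9% to 29.2%). A PARP1 peak was thus within 10 kb more often than for the weaker distal peaks and less often than for the peaks near starts, with intervals that did not overlap, except that the interval of the 462 peaks above the tied score overlapped that of the peaks near starts. Another PRMT6 peak lay within 10 kb of 13.8% (11.2% to 16.6%), against 19.7% (17.6% to 22.1%) of the distal peaks over PARP1 and 7.44% (6.50% to 8.48%) of the weaker ones. Without the tied block it was 17.5% (14.2% to 21.3%), which overlapped that of the peaks over PARP1.

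**Figure D4:**
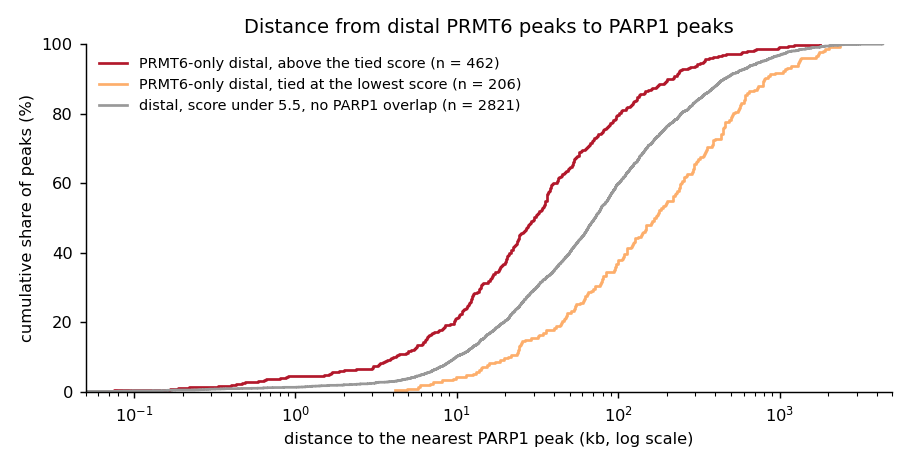
Cumulative share of peaks in percent by distance to the nearest PARP1 peak in kb (log scale), for the 462 PRMT6-only distal peaks above the tied score, the 206 tied at the lowest score, and the 2821 weaker distal peaks without PARP1. The medians are 30.1, 168.8 and 71.7 kb.

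The peaks were narrow. The smallest listed width, 288 bp, was found in 347 of the 668 (51.9%, 48.1% to 55.8%), of which 206 are the tied block, and in 30.5% without it. The widest measured 791 bp. Among the distal peaks over PARP1 210 of 1236 (17.0%, 14.9% to 19.2%) had this width. Within equal scores the difference was small, 46.2% against 39.8% from above 5.51 to 6, 29.9% against 33.4% from 6 to 7, and 18.8% against 12.8% from 7 to 8, with overlapping intervals each time. No peak of 8 or more in either group had the smallest width.

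The chromosomes took uneven shares. Chromosome 4 held 33 of the 668 (4.94%, 3.42% to 6.87%) against 19 of 1236 distal peaks over PARP1 (1.54%, 0.928% to 2.39%). Without the tied block it held 15 (3.25%), and of the weaker distal peaks it held 4.57% (3.83% to 5.41%). By contrast chromosome 17 held 30 (4.49%, 3.05% to 6.35%) against 107 (8.66%, 7.15% to 10.4%), with 4.01% (3.31% to 4.80%) of the weaker ones. On both chromosomes the intervals of the 668 peaks and of the weaker peaks overlapped. Chromosome 19, the most gene-dense, held 45 (6.74%, 4.96% to 8.91%), against 8.09% (6.63% to 9.75%) of the peaks over PARP1 and 2.55% (2.002% to 3.20%) of the weaker ones, and 9.31% without the tied block. These 3 chromosomes were picked from 23 after their values were seen. The cell line carries extra and missing copies of many chromosome segments, and copy number was not analysed here.

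**Figure D5:**
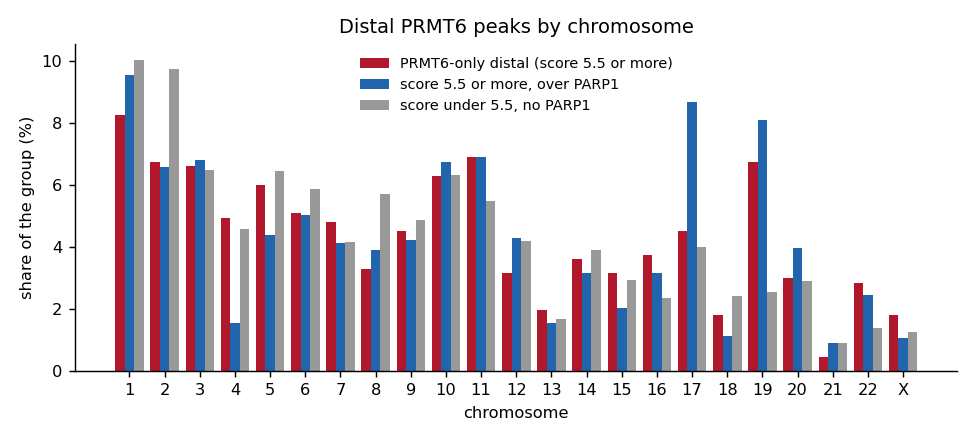
Share of each group in percent by chromosome, for the 668 PRMT6-only distal peaks, the 1236 distal peaks over PARP1 and the 2821 weaker distal peaks without PARP1. Chromosome 17 stands higher for peaks over PARP1 (8.66%) than for PRMT6-only distal peaks (4.49%), and chromosome 4 lower (1.54% and 4.94%).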

How the data were processed

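Chromatin of MDA-MB-231 cells was profiled with an antibody to PRMT6 or to PARP1. The methods and labels name CUT&Tag, but the labels also describe adaptor ligation to precipitated DNA, a step of ChIP-seq, and which of them made the libraries could not be settled. The deposited lists give each peak a position and a score, which the authors made with MACS from each library alone and which was read from its values as a −log10 p-value or q-value. Which of these it is was not settled. It grows with depth and was used only within a list. Read depth and peak-calling thresholds are not given in the sources used here. The submitters' processing notes name Bowtie 0.12.8, CASAVA 1.4, MACS2 and the build hg19, yet 30.2% of PRMT6 peaks lay within 1 kb of a coding start of GRCh38 and 4.04% of GRCh37 (hg19). GRCh38 was therefore used.

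Gene records and starts came from RefSeq (GRCh38.p14, 59716 records). Strand came from the RefSeq promoter table for 27303 records and from the GENCODE gene of the same name for 20367. For the other 12046 both ends counted as a start. Distances run from the nearest base of a peak. An alternative start is one in the promoter table over 3 kb from every record's 5′ end. This definition, the motifs and the split by tied score were chosen after the data were seen. Overlap meant 1 shared bp, and the code gave the same 4211 overlapping peaks as bedtools 2.31.1. Python 3.11.15, pandas 2.3.3 and scipy 1.17.1 were used. The code was tested on simulated peaks.

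Regions, gene lists and comparisons were chosen with earlier results of these data known. Named are the 10 best peaks, 10 records with the most peaks (CUX1 with 3, then records tied at 2 taken by summed score), up to 4 genes per list by score (a 5th, tied, was added after the values were seen), runs of 3 or more, and the peaks beside the threshold. Of the 5 peaks at 5.45, the first 2 are named, and of the 206 at 5.51 the last 2 by chromosome name. Peak sequences other than at alternative starts, and a split into exons and introns, were not analysed here. Alternatives are given in the closing section.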

Additional observations from a re-analysis of the deposited data

How the results depend on the processing

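Of 57 alternative values, 33 stayed within the interval, or within 1.5 times for a count, and 24 moved. With a score of 6 or more, 293 peaks remained, with 77.8% in a gene record, 20.8% with a PARP1 peak within 10 kb, 21.5% of the smallest width and 5.12% at an alternative start. With 8 or more there were 57, with 80.7%, 29.8%, 0% and 10.5% in the same order. The chromosome 19 peaks among the 57, and their distances to PARP1, are described below. Leaving out the peaks of the smallest width gave 321, with 75.4%, 19.6%, 0% (by construction) and 4.98%. Without the block tied at the lowest score, chosen after seeing the data, the shares in a gene record, near PARP1 and of the smallest width were 76.8%, 21.2% and 30.5%. Counting only reciprocal overlap of 50% as shared gave 33.5% near PARP1, since peaks that overlap less then count as near, and 45.1% of the smallest width. With more than 10 kb from every start, 436 peaks remained and 11.9% were near PARP1. With the higher-scoring 50% of the PARP1 list, 11.1% were near PARP1 and 43.9% had the smallest width. For the other moves the cause was not tested. The count stayed within 1.5 times from 462 without the tied block to 928 with the shorter PARP1 list. The depth of the libraries is unknown, so a weak PARP1 signal under a PRMT6-only distal peak could not be told from none. No paired analysis was possible because there were no replicate libraries.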

Other observations

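In 14 of the 668 PRMT6-only distal peaks a PARP1 peak lay within 500 bp without a shared base, and in 3 within 100 bp. Within 1 kb the share was 3.14% (1.96% to 4.77%), and 4.55% (2.84% to 6.86%) without the tied block. It was 1.38% (0.985% to 1.89%) in the weaker distal peaks. In the stronger peaks near a gene start without PARP1 overlap it was 7.90% (5.84% to 10.4%). The closest pair, 3 bp apart, was on chromosome 14 outside any gene record (55107901 to 55108189, score 5.59). Next came a peak within EPHB2, an ephrin receptor gene, 5 bp from a PARP1 peak (score 6.76), and a peak within NAXD, an enzyme gene of NADH repair, at 75 bp (score 5.62). Also among the 14 were peaks within POLK, a DNA polymerase for damaged templates, at 186 bp, and within DCAF1, a substrate receptor of the CRL4 ubiquitin ligases, at 218 bp. These genes were named after their values were seen, and all but 1 of the 14 kept a score under 10.

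On chromosome 19, 12 of the 57 PRMT6-only distal peaks with a score of 8 or more were found (21.1%, 11.4% to 33.9%), against 54 of 532 distal peaks over PARP1 at the same score (10.2%, 7.72% to 13.0%), with intervals that overlapped. From 8 to 10 the shares were 23.8% (12.1% to 39.5%) and 5.505% (2.88% to 9.42%), with intervals that did not, but this band was picked from 6 after the values were seen. The 12 lay within KLF16, FBXO46, RFX2, TMEM143, ZNF331, TMC4, ZBTB45 and ANGPTL4 in 8 cases, where ANGPTL4 encodes an inhibitor of lipoprotein lipase and RFX2 a transcription factor of cilia genes, and outside gene records in 4. Among the 12, the peak within ZNF331 and that nearest to the start of LOC100287614 lay 24.2 and 22.2 kb from a PARP1 peak. The others had a PARP1 peak within 10 kb, and they are part of the 29.8% given for the 57.

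Along coding host genes the peaks were spread over the whole length. From the 5′ end, 4 equal stretches of the record held 21.6%, 29.4%, 28.0% and 21.1% of 422 peaks. The rule left out peaks within 3 kb of a gene start, and a gene's own start lies in the first stretch. For distal peaks over PARP1 the stretches held 24.0%, 27.1%, 25.4% and 23.6%. For the weaker distal peaks they held 20.7%, 24.6%, 27.4% and 27.2%. Within 1 kb of the 3′ end of a coding gene lay 1.80% of the 668 (0.932% to 3.12%). The share was 2.83% (1.98% to 3.92%) for the peaks over PARP1 and 1.56% (1.14% to 2.09%) for the weaker ones.

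Scores shared by many distal peaks were common in the PRMT6 list. The value 4.48 was shared by 755 distal peaks and the value 5.17 by 505. Of the distal peaks at 5.17, below the threshold, 92.5% had no PARP1 overlap and 50.1% of these lay within coding genes, where the shares at 5.51 were 95.8% and 49.5%.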
